A study of Rattus norvegicus with 2 samples.

Results

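The genes described here are 9 genes of brain endothelium and of the blood-brain barrier, measured in hypothalamic RNA of female Sprague Dawley rats at 2 stages. They were found by gene name among the 22353 genes of the mRNA table, and each of the 9 was present: Cldn5, Slc2a1, Flt1, Kdr, Pecam1, Abcb1a, Slco1a4, Mfsd2a and Tek. The prepubertal rats were taken at postnatal day 25 and the pubertal rats at the first estrus, postnatal day 35. Neither group carried a treatment or an altered gene. The methods give 3 rats per stage, but the deposited tables hold 1 column per stage. Each stage was therefore treated as 1 library, and no difference below has a replicate check or a test. The question was how the genes of the vessel wall compare between the stages around female puberty.

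Capillaries of the brain are lined by endothelial cells that are sealed to each other by tight junctions and take up little by vesicles. Nutrients cross through dedicated carriers, and efflux pumps return many foreign compounds to the blood. In the hypothalamus this barrier is not uniform, since the capillaries of the median eminence are fenestrated and let hormones pass between brain and blood. Whole hypothalamus was sequenced, so a lower value for an endothelial gene can come from fewer endothelial cells or from less RNA per cell, which cannot be told apart here.

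Levels are given as FPKM, which is the fragments of a gene scaled by transcript length and library size, so that genes can be compared within a library. The difference between the libraries is the log2 of (FPKM + 1) at puberty over (FPKM + 1) before puberty, so values above 0 belong to genes with more RNA in the pubertal library. Low FPKM of genes with a single transcript lay at whole multiples of 1 fragment. This gave an approximate depth equivalent to 20800000 fragments in the prepubertal library and 16200000 fragments in the pubertal library, 1.29 times as many before puberty. Any scaling between the libraries already in the FPKM enters these depths, so they can differ from the fragments sequenced. From these depths an approximate number of fragments behind each gene was computed, and the 95% intervals below (exact Poisson for a level, exact conditional binomial for a ratio) cover counting error only.

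The genes did not move as 1 group. Of the 9 genes, 5 were higher and 4 lower in the pubertal library, and the median log2 difference was 0.08. Over the 13612 genes with a mean of at least 1 FPKM the median was -0.01 and 51.0% were lower at puberty. The membrane transporters lay on the higher side, Slco1a4 (0.57), Mfsd2a (0.37), Abcb1a (0.32) and Slc2a1 (0.08), together with the receptor Flt1 (0.13). Kdr (-0.59), Pecam1 (-0.21), Tek (-0.15) and Cldn5 (-0.11) lay on the lower side. Actb, the cytoskeletal actin often used as a reference, had 763 FPKM before and 576 FPKM at puberty. When the pubertal library was scaled to equal Actb, the median of all genes shifted by 0.37 and Pecam1, Tek and Cldn5 turned positive (0.17, 0.22 and 0.29). Measured from the median of all genes under that scaling, the same 3 genes stood at -0.20, -0.14 and -0.08.

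Only Kdr, 1 of the 9 genes, was lower by at least 1.5-fold in FPKM + 1, against 2.33% of all genes. None was higher by that much (0 of the 9), against 1.75% of all genes. The bound lies at 0.58 on the log2 scale, so Kdr was just past it and Slco1a4 just short of it, and small changes of scaling exchanged their places.

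**Figure D1:**
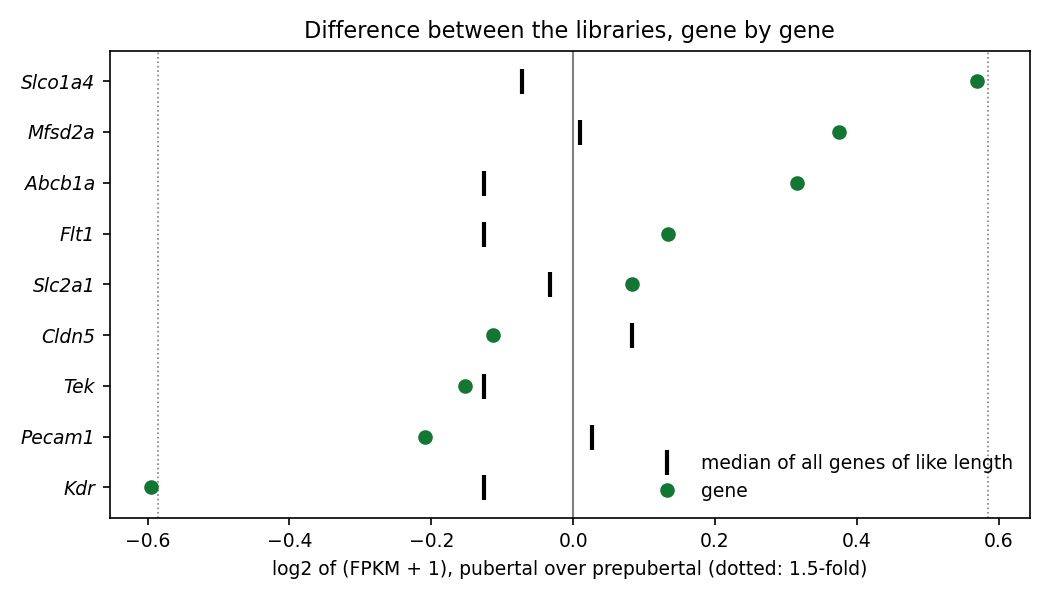
Log2 of (FPKM + 1) in the pubertal over the prepubertal library (x axis) for each of the 9 genes (y axis). Points are genes, black ticks are the median of all genes in the same class of transcript length and dotted lines mark 1.5-fold. Slco1a4, Mfsd2a and Abcb1a stand to the right and Kdr to the left, while Pecam1, Tek and Cldn5 are left of 0 here and right of 0 when scaled to equal Actb.

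Of the 9 genes, 6 matched the promoter table (Slco1a4, Abcb1a, Kdr, Flt1, Slc2a1 and Cldn5). Among these 6, the promoters of the 3 genes farthest from the median of all genes are printed here, with that of Flt1 beside Kdr as the other receptor of the VEGF pair. They are RefSeq windows of 300 bases on the build GRCr8, from 250 bases before to 50 bases after the annotated start, printed 5′ to 3′ on the strand of the gene. Mfsd2a, which lay farther from that median than Abcb1a, was not matched. Slco1a4 lies at chr4:176495797-176496096 on the minus strand, Abcb1a at chr4:26397599-26397898 on the minus strand, Kdr at chr14:32571813-32572112 on the plus strand and Flt1 at chr12:12333180-12333479 on the plus strand. Capitals mark matches, on either strand, to 1 of the 6 motifs searched, whose letters follow with the results.
Slco1a4: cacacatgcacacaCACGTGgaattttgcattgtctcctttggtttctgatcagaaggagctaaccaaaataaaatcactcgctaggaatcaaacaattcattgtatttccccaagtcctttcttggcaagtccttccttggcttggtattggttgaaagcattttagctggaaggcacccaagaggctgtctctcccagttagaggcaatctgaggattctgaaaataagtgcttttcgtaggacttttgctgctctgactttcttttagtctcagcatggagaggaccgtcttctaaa
Abcb1a: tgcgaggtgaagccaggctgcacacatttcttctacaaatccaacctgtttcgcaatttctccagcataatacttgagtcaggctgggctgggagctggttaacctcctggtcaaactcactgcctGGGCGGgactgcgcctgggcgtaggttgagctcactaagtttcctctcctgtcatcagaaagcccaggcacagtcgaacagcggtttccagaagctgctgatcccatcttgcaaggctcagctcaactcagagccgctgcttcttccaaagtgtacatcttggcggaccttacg
Kdr: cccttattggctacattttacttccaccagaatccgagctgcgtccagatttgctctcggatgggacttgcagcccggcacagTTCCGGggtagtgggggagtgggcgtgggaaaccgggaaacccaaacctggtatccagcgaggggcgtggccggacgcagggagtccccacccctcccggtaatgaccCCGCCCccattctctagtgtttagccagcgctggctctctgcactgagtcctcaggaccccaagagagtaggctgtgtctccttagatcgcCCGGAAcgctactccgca
Flt1: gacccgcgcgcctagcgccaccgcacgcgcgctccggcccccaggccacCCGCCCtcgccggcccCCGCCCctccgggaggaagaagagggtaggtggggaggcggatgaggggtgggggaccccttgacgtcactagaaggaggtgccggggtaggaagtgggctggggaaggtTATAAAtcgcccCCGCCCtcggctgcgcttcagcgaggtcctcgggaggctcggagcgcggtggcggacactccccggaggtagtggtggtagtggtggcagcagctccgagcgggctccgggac

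The windows differed in base composition. G and C made up 43.0% of the Slco1a4 window and 53.7% of that of Abcb1a, against 61.0% for Kdr and 72.7% for Flt1 and a median of 51.7% over the 33469 promoters of the table. CpG dinucleotides numbered 4, 10, 18 and 31 in the same order, with a median of 7 over all promoters. A GC box, GGGCGG, was found in the windows of Abcb1a, Kdr and Flt1, and in 33.1% of all promoters. The E-box of Slco1a4, with the letters CACGTG and 236 bases before the start, was the 1 match in that window, and 6.42% of all promoters hold one. Kdr held 2 matches to the ETS core CCGGAA, a motif in 14.95% of all promoters, at 167 bases before and 33 bases after the start. The letters of the TATA box, TATAAA, stood in the Flt1 window 75 bases before the start, and in 14.2% of all promoters. The TCF/LEF core CTTTGA, in 16.1% of all promoters, was in none of the 4 windows. Nor was the nuclear receptor half-site AGGTCA, which 16.2% of all promoters hold. These matches describe the letters of the windows, and no binding was measured.

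Among the transporters, Slco1a4, an organic anion carrier of the barrier that accepts steroid conjugates and thyroid hormone, differed most. Slco1a4 (ENSRNOG00000047493) was listed at 29.0 FPKM before puberty and 43.5 FPKM at puberty. The ratio of FPKM was 1.5, with an interval of 1.41 to 1.59 from about 1952 and 2299 fragments. Its value lay above that of 98.1% of all genes and of 99.9% of genes in its class of length. The files list 2 transcripts of Slco1a4, and both were higher at puberty, ENSRNOT00000046598 with 24.3 and 37.6 FPKM and ENSRNOT00000043374 with 4.70 and 5.96 FPKM. Close relatives of this carrier, named after their values were seen, could share fragments with it. Slco1a1, Slco1a2 and Slco1a6 were listed at no more than 0.0384 FPKM in either library.

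Mfsd2a carries lysophosphatidylcholine with docosahexaenoic acid into the brain and is known to keep transcytosis low in brain endothelium. Mfsd2a (ENSRNOG00000014008) stood at 11.8 FPKM before puberty and at 15.6 FPKM at puberty. The ratio was 1.32, with an interval of 1.16 to 1.51, from 462 and 478 fragments. The numbers of fragments were nearly equal because 1 fragment was worth more FPKM in the pubertal library.

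Abcb1a encodes P-glycoprotein, the efflux pump of the luminal membrane. Abcb1a (ENSRNOG00000008012) had 10.98 FPKM before puberty and 13.9 FPKM at puberty, a ratio of 1.27 with an interval of 1.16 to 1.38. The related gene Abcb1b, with which some fragments could be shared, was listed at 0.574 and 0.515 FPKM. Slc2a1, the glucose transporter of brain endothelium, also occurs in other cells, among them glia. Slc2a1 (ENSRNOG00000007284) had nearly level values, 51.8 FPKM before and 54.9 FPKM at puberty. The interval of its ratio, 0.999 to 1.12, was narrow, as it rests on 2492 and 2064 fragments, and included 1.

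**Figure D2:**
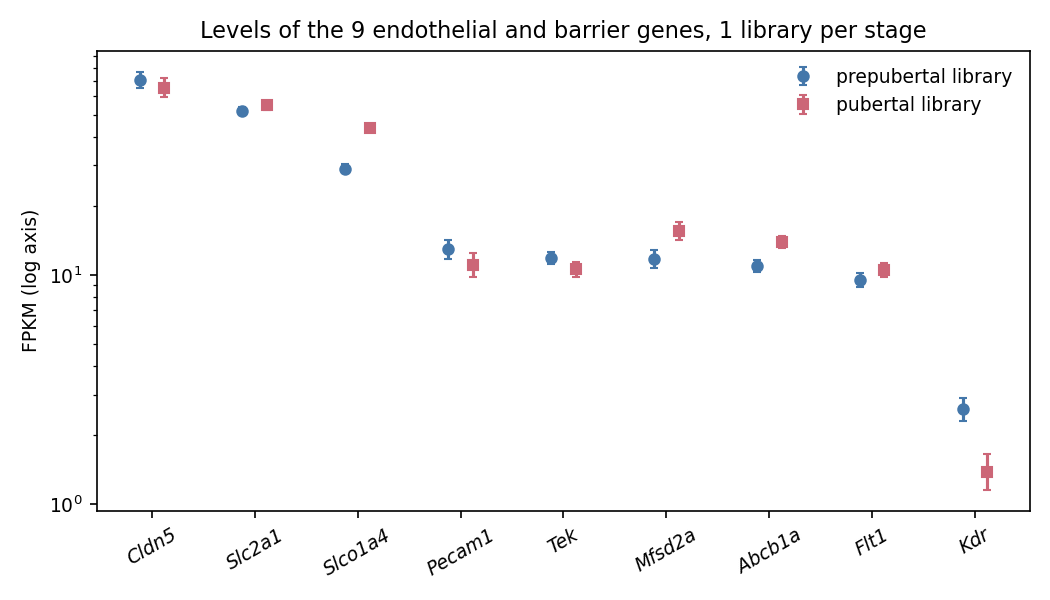
FPKM on a log axis (y) of the 9 genes (x, ordered by the prepubertal level) in the prepubertal (circles) and pubertal (squares) library. Bars are exact Poisson 95% intervals from approximate fragment numbers and cover counting error only. Cldn5 and Slc2a1 were the highest in both libraries and Kdr, at 2.60 and 1.38 FPKM, the lowest.

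Kdr and Flt1 are receptors for VEGF. Kdr gives the main growth and permeability signal in endothelium, while Flt1 binds VEGF tightly with little signal and also acts as a decoy. Kdr (ENSRNOG00000046829) had 2.60 FPKM before puberty and 1.38 FPKM at puberty. The ratio was 0.532, with an interval of 0.429 to 0.657, from about 303 and 126 fragments, the fewest of the 9 genes. On the scale of FPKM + 1, the log2 difference of Kdr lay above that of 2.20% of all genes. Since Kdr is low, the added 1 FPKM weighs on this difference, which became -0.86 with a pseudocount of 0.1, where 4.06% of all genes were at least 1.5-fold lower.

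Flt1 (ENSRNOG00000000940) had 9.49 FPKM before puberty and 10.5 FPKM at puberty, a ratio of 1.11 with an interval of 1.004 to 1.22. The levels of the pair lay farther apart at puberty. Flt1 stood at 3.65 times the FPKM of Kdr in the prepubertal and at 7.60 times in the pubertal library, a comparison into which no scaling of the libraries enters.

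Tek, known as Tie2, is the receptor for angiopoietins and holds vessels in a quiet state. Tek (ENSRNOG00000008587) had 11.9 FPKM before puberty and 10.6 FPKM at puberty, a ratio of 0.892 with an interval of 0.811 to 0.980. The median of genes in its class of length was -0.13, so its log2 difference of -0.15 was that of other long transcripts. Pecam1, an adhesion molecule found at contacts between endothelial cells and on platelets and leukocytes, had 12.9 and 11.05 FPKM. The ratio of Pecam1 (ENSRNOG00000043391) was 0.855, with an interval of 0.733 to 0.996.

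Cldn5, the main claudin of the tight junctions of brain endothelium, had the highest level of the 9 genes. Cldn5 (ENSRNOG00000045811) reached 70.9 FPKM before puberty and 65.5 FPKM at puberty, above 87.8% and 86.5% of all genes. The ratio was 0.923 and its interval, 0.813 to 1.05, included 1. Its transcript, listed at 657 nt, is the shortest of the 9, and FPKM of short transcripts depend most on the fragment length assumed. Whether the listed length covers the whole mRNA was not checked, and its class of length rests on it.

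After Cldn5 and Slc2a1, Slco1a4 had the next level in both libraries. Before puberty, Pecam1, Tek, Mfsd2a and Abcb1a followed between 12.9 and 10.98 FPKM, and the intervals of neighbours in this order overlapped. At puberty, Mfsd2a and Abcb1a came next after Slco1a4, and the lower bound of Abcb1a (13.1 FPKM) was above the upper bound of Pecam1 (12.4 FPKM). Pecam1, Tek and Flt1 were then level, between 11.05 and 10.5 FPKM. Within a library, Mfsd2a had 0.911 times the FPKM of Pecam1 before puberty and 1.41 times at puberty, and Abcb1a had 0.926 and 1.32 times that of Tek. Slco1a4 had 0.560 times the FPKM of Slc2a1 before puberty and 0.793 times at puberty. These pairs were chosen after the values were seen.

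Of the 8 genes with a single transcript, the counting interval of the ratio lay above 1 for 3 (Abcb1a, Mfsd2a and Flt1) and below 1 for 3 (Kdr, Pecam1 and Tek). Over the 11645 genes with 1 transcript, it lay above 1 for 19.8% and below 1 for 23.0%. Pecam1, Tek and Flt1 were close to 1, with nearest bounds of 0.996, 0.980 and 1.004. With the libraries scaled to equal medians, only Kdr lay below 1 (18.0% of all such genes), and Slc2a1 joined the genes above 1, which made 4 of 8 (25.7% of all such genes). Such an interval compares these libraries and not the stages, since the spread between rats is not in it.

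Differences of all genes depended on the length of the transcript. The median log2 difference was 0.08 in the shortest of 10 classes, up to 773 nt, and -0.13 in the longest, from 4461 nt. Of the 9 genes, Flt1, Kdr, Abcb1a and Tek were in the longest class. Measured from the median of its class, Slco1a4 stood at 0.64, Abcb1a at 0.44, Mfsd2a at 0.37, Flt1 at 0.26 and Slc2a1 at 0.12. Kdr stood at -0.47, Pecam1 at -0.23, Cldn5 at -0.20 and Tek at -0.03. By this measure Abcb1a lay above 98.6% and Flt1 above 93.4% of the genes of their class, and Kdr above 1.69%.

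**Figure D3:**
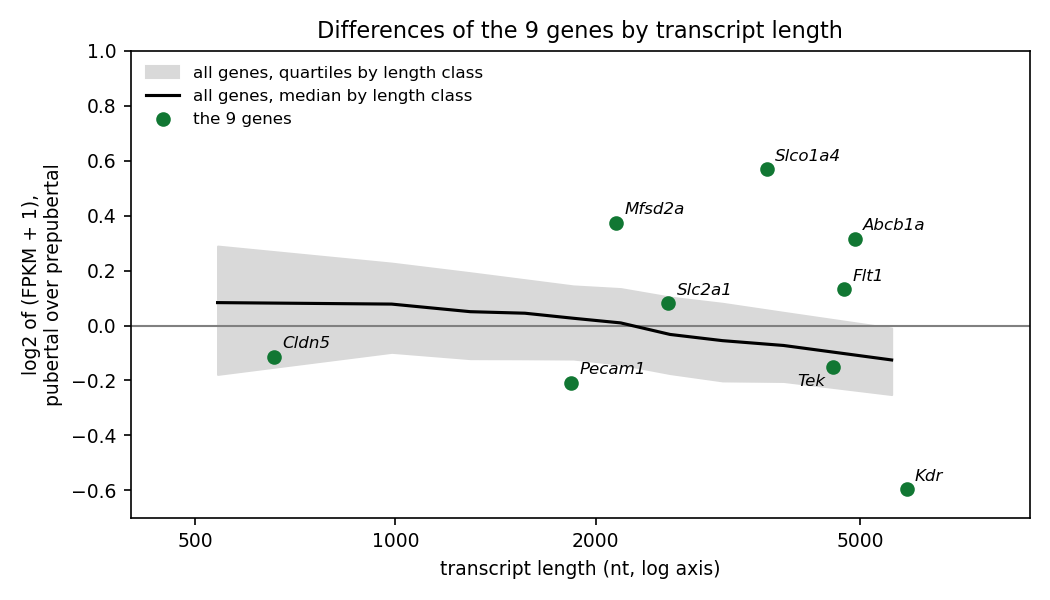
Log2 of (FPKM + 1) in the pubertal over the prepubertal library (y axis) against transcript length in nt (x axis, log scale) for the 9 genes (points). The line and band are the median and quartiles of all genes with a mean of at least 1 FPKM in 10 classes of length. The line runs from 0.08 to -0.13. Slco1a4, Mfsd2a, Abcb1a and Flt1 lie above the band, and Kdr and Pecam1 below it.

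Other endothelial genes were mostly lower at puberty, with the FPKM as deposited. In a list of endothelial identity genes, such as adhesion molecules and transcription factors of endothelium, 23 of the 25 genes found had a mean of at least 1 FPKM. Of these, 20 were lower and 3 higher, where 51.0% of all genes were lower. The median log2 difference was -0.16, which became 0.19 when scaled to equal Actb, still below the median of all genes. Scaled in that way, each of the 18 lists compared had a median above 0, down to 0.02 for basement membrane and pericytes, so the directions given for lists below hold for the FPKM as deposited. Against the median of their classes of length, 17 of the 23 were lower. None was past 1.5-fold in FPKM + 1, against 2.33% of all genes lower and 1.75% higher by that much. That scale was used for this bound in every list, and on it low genes differ less than in FPKM. The lowest was Sox18, a transcription factor of vessel development, with 2.37 and 1.31 FPKM, a ratio of 0.552 in FPKM itself, and the highest was Clec14a, with 2.22 and 2.94 FPKM. Named after their values were seen, the junction cadherin Cdh5 had 2.44 and 1.77 FPKM, and Tie1, the partner of Tek, had 5.22 and 5.20 FPKM.

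The other transporters of the barrier were found on both sides. Of 21 genes with a mean of at least 1 FPKM, 8 were higher and 13 lower, where 51.0% of all genes were lower, with a median of -0.07. Less the median of their classes of length, the median of the list turned to 0.02 and 10 of the 21 were lower. The highest was Abcg2, the other large efflux pump of brain endothelium, with 14.0 and 19.3 FPKM, a ratio of 1.38 with an interval of 1.23 to 1.55. The lowest, and the 1 gene of the list past 1.5-fold, was Slc22a8, an organic anion transporter also present in choroid plexus, with 2.50 and 1.20 FPKM. Of all genes, 2.33% were lower by that much. Among 12 genes of tight and adherens junctions, 7 were higher and 5 lower, with a median of 0.06. They ranged from Tjp1, a scaffold of tight junctions, with 18.1 and 13.6 FPKM, to Lsr, a protein of junctions between 3 cells, with 4.36 and 5.47 FPKM. In whole hypothalamus, the cells behind the values of these lists were not told apart. Their highest levels were those of Bsg (632 and 682 FPKM) and Ctnnb1 (316 and 299 FPKM), far above Pecam1 (12.9 and 11.05 FPKM).

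In the VEGF and angiopoietin pathway, 5 of 9 genes were higher and 4 lower, with a median of 0.01 (-0.01 less the median of the length classes). Beside this list and the next, 51.0% of all genes were lower and 2.33% at least 1.5-fold lower. Angpt2, which can block Tek, was past 1.5-fold with 4.41 FPKM before puberty and 2.42 FPKM at puberty. The highest value was that of Pgf, a ligand of Flt1, with 2.33 and 3.11 FPKM. The ligands Vegfa and Angpt1, named after their values were seen, had 21.7 and 24.98 FPKM and 5.90 and 7.42 FPKM. Of 14 Wnt genes and other regulators of the barrier, 9 were lower and 5 higher, with a median of -0.06, and values ran from Fzd6 (4.61 and 2.62 FPKM, past 1.5-fold) to the ligand Ndp (16.3 and 18.7 FPKM).

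For caveolae and fenestrae, 4 of 6 genes were lower, against 51.0% of all genes. The median was -0.13, from Ptrf (18.4 and 13.9 FPKM) to Sdpr (7.83 and 10.7 FPKM), both coat proteins of caveolae. Plvap, the diaphragm protein of fenestrated capillaries, was named after its values were seen and had 2.97 and 3.06 FPKM. Of the 10 genes of the vascular basement membrane, 9 were lower, against 51.0% of all genes. Their median of -0.31 came to -0.19 less the median of the length classes. Nid1, which links laminin and collagen, was past 1.5-fold with 15.7 and 9.35 FPKM, where 2.33% of all genes were lower by that much. Lama5 was the highest of this list, with 1.11 and 1.13 FPKM. Of the genes of inflamed endothelium, 2 reached a mean of 1 FPKM, Icam1 with 1.5 and 1.27 FPKM and Vcam1 with 30.7 and 30.1 FPKM. Below that mean were Sele (0.122 and 0.237 FPKM), Selp (0.0661 and 0.0211 FPKM) and Lcn2 (0.780 and 0.811 FPKM). The cells that Vcam1 RNA came from were not told apart.

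**Figure D4:**
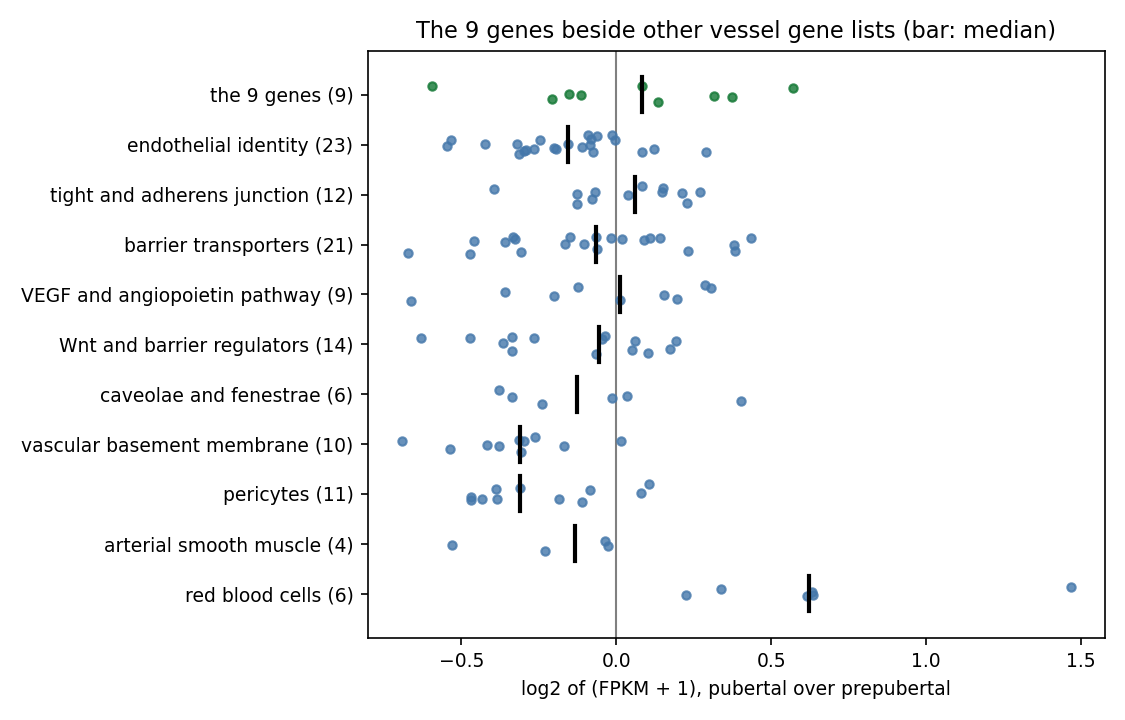
Log2 of (FPKM + 1) in the pubertal over the prepubertal library (x axis) of the 9 genes (top) and of the genes with a mean of at least 1 FPKM in 10 other lists (y axis, number of genes in brackets). Points are genes and bars medians, from -0.31 for basement membrane and pericytes to 0.62 for red blood cells, before any scaling. When scaled to equal Actb, the median of all genes shifts by 0.37 to the right.

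Genes listed for other cells of the vessel wall and of the blood also differed between the libraries. Whole tissue does not show which cells their RNA came from. Of all genes, 51.0% were lower, 2.33% at least 1.5-fold lower and 1.75% at least 1.5-fold higher. Of 11 genes of the pericyte list 9 were lower, with a median of -0.31 (-0.19 less the median of the length classes) and a summed level of 212 and 198 FPKM over the 12 genes found, with Rgs5 (70.9 and 76.3 FPKM) the highest. The lowest, Pdgfb (2.79 and 1.74 FPKM), is a growth factor that endothelial cells make for pericytes, and without it the median was -0.25 and 8 of 10 were lower. Of 4 genes of arterial smooth muscle 4 were lower, with a median of -0.13, from Mylk (5.22 and 3.31 FPKM) to Tagln (25.2 and 24.8 FPKM). All 6 genes of red blood cells found were higher, and their summed level was 6839 FPKM before puberty and 13086 FPKM at puberty. Of these, Hbb (2130 and 5898 FPKM), Hba1, Hba2 and Alas2 were past 1.5-fold, and the globin genes have near-identical copies that can share fragments. All 7 genes of the list of fibroblasts and meninges were lower, with a summed level of 113 and 81.7 FPKM. Of that sum Pdgfra, also a gene of oligodendrocyte progenitors, made up 32.8 and 27.6 FPKM. The other 6 genes summed to 79.8 FPKM before and 54.1 FPKM at puberty, and Col1a1 (9.57 and 2.93 FPKM), Col1a2 and Ogn were past 1.5-fold. The part of these differences in the values of the 9 genes was not tested.

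The tissue was checked against markers of brain cells. All 12 hypothalamic peptide genes were above 1 FPKM on average, with Pmch, Oxt and Avp between 240 and 2723 FPKM. At puberty 11 of the 12 were higher, where 51.0% of all genes were lower. The median of the 12 was 0.31, or 0.23 less the median of the length classes. Oxt, Pmch and Kiss1 were past 1.5-fold, against 1.75% of all genes higher by that much. Kiss1 rests on about 11 and 26 fragments, and the interval of its ratio was 1.24 to 5.81. The 6 microglia genes were higher (median 0.20) and the 6 neuron genes lower (median -0.30). Of 8 astrocyte genes 5 were higher (median 0.07, with Gja1 past 1.5-fold in the lower direction, against 2.33% of all genes). Of 6 oligodendrocyte genes 3 were higher (median -0.06), and of 6 choroid plexus genes 3 were higher (median -0.01). The latter ran from Kcnj13 (2.02 and 1.35 FPKM) to Aqp1 (1.22 and 2.21 FPKM).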

How the data were processed

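Hypothalamic RNA of prepubertal and pubertal rats was depleted of ribosomal RNA and sequenced from strand-specific, paired-end libraries. The authors aligned reads with TopHat, assembled them with Scripture and Cufflinks 2.1.1, and deposited FPKM per transcript, estimated with Cuffdiff 2.1.1 and already scaled for library size and length. The build is Rnor_5.0 in the submitters' processing notes and Rnor_6.0 in the methods, so no coordinates of the files were used. The deposited comparison table also holds the authors' log2 ratios, p-values and q-values, which were not used. How the 3 rats of a stage were combined is not given in the sources used here.

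FPKM of 26324 mRNA transcripts were summed per gene name and compared as log2 of (FPKM + 1). The background was the 13612 genes with a mean of at least 1 FPKM. With 1 library per stage no test was run. The worth of 1 fragment was fitted to low FPKM of genes with 1 transcript of at least 1000 nt, up to 12 fragments, after 260 (prepubertal) and 250 bases (pubertal) were taken off the length. Of 1590 and 1779 such values, 96.6% and 96.3% were within 0.1 of whole. FPKM carry no fragment numbers themselves, so these are approximate. The steps were checked on simulated data with known depths and fold changes.

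The 9 genes and the lists were chosen with earlier results of these data known. From each list, the genes with the highest and lowest difference and those past 1.5-fold were to be named, among genes with a mean of at least 1 FPKM. For other cell types, counts stand in place of most names. Likeness of pattern to other genes was not computed, as 2 libraries give no pattern. The lncRNA files were not used here. Alternatives were a pseudocount of 0.1, scaling to equal medians or equal Actb, other choices of transcripts, centring by length, the FPKM of the comparison table and other backgrounds. Promoters came from RefSeq (GRCr8). Computation was in Python 3.11.15 (pandas 2.3.3, numpy 2.4.6), intervals came from scipy 1.17.1 and plots from matplotlib 3.10.9.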

Additional observations from a re-analysis of the deposited data

How the results depend on the processing

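With 1 library per stage, no difference can be weighed against variation among rats, and depth limits Kdr most. No paired analysis was possible because each stage has 1 library. Each of the 9 genes kept its direction under the pseudocount of 0.1, equal medians, each choice of transcripts, centring by length class and the FPKM of the comparison table, and 6 of 9 did when scaled to equal Actb, which multiplied the pubertal FPKM by 1.32. Scaled to equal Actb, the median of the 9 genes was 0.48, 1 was lower, 0 were at least 1.5-fold lower and 3 were at least 1.5-fold higher, beside 9.62%, 0.646% and 16.3% of all genes in the same setting. Scaled to equal medians (a factor of 1.03), or less the median of the length class, 0 were at least 1.5-fold lower and 1 was at least 1.5-fold higher, since Kdr came to -0.57 and -0.47 and Slco1a4 to 0.61 and 0.64. The shares of all genes were 1.96% lower and 2.01% higher by that much under equal medians, and 2.42% and 1.46% less the class median. With the transcript of the highest mean FPKM taken alone, 1 was at least 1.5-fold higher, Slco1a4 at 0.61, with 1.87% of all genes. Alternatives chosen after seeing the data were the following. Of the 8 genes with a single transcript, the counting interval lay above 1 for 4 and below 1 for 1 under equal medians, and above 1 for 6 and below 1 for 1 under equal Actb (71.1% and 1.87% of all genes with 1 transcript). Without Pdgfra, the median of fibroblasts and meninges moved from -0.33 to -0.50. Over all alternatives Kdr ranged from -0.86 to -0.35, Slco1a4 from 0.57 to 0.97, Mfsd2a from 0.37 to 0.76 and Abcb1a from 0.32 to 0.70. The median of each of the 18 other lists moved by over 0.1 when scaled to equal Actb, and those of 2 lists did less the median of the length class, basement membrane and pericytes, each from -0.31 to -0.19. In that setting the median of the barrier transporters turned from -0.07 to 0.02 and that of the VEGF and angiopoietin pathway from 0.01 to -0.01. With a pseudocount of 0.1, 4.06% of all genes were at least 1.5-fold lower and 2.68% higher, against 2.33% and 1.75% with 1. Among genes with a mean of at least 5 FPKM, 1.80% were at least 1.5-fold lower and 1.22% higher.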
